A study of Mus musculus with 19 samples.

Results

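The 9 genes described here are genes of oligodendrocytes and of the myelin they make: the transcription factors Olig1 and Sox10, which act early in the lineage, and the myelin proteins Mbp, Mog, Mag, Mobp, Cnp, Cldn11 and Mal. They were chosen by symbol, with earlier results of these data known, and all 9 were found by symbol among the 41388 genes of the count files. The study asked how a mutation in 1 copy of Wiz, a zinc finger protein of the G9a/GLP histone methyltransferase complex, alters gene expression in the brain. RNA was sequenced from 16 FVB samples that the study's methods describe as single animals: adult cerebellum at 56 days post partum (3 Wiz +/+ and 3 Wiz MommeD30/+, males by the methods) and whole brain at 13.5 days post coitum (E13.5; 3 and 3 male embryos, 2 and 2 female embryos). Wiz +/+ is called WT and Wiz MommeD30/+ Het below. MommeD30 arose by chemical mutagenesis in a line that carries a multicopy GFP reporter transgene, and the line's controls carry that transgene too. The mutation is present in every cell of a heterozygote, not in oligodendrocytes alone. Only the count data are used here, and the ChIP-seq samples are not analysed here.

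Oligodendrocytes wrap axons in the central nervous system with myelin, a stack of compacted membrane that speeds conduction. Their precursors arise from the ventral neural tube in the embryo, spread through the brain and differentiate mostly after birth, so that an adult cerebellum has myelinated white matter and a mid-gestation brain has almost none. OLIG1 is a basic helix-loop-helix factor and SOX10 an HMG-box factor, and both are needed for oligodendrocyte differentiation. SOX10 is also made by neural crest and Schwann cells, the myelinating cells of peripheral nerve. MBP and MOBP compact the cytoplasmic faces of the membrane, MAG lies on the inner surface next to the axon, MOG lies on the outermost surface, CNP keeps cytoplasmic channels open, CLDN11 forms the tight junctions of the sheath and MAL is a membrane-sorting proteolipid.

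Total counts ran from 16386029 in the second male WT brain to 50459755, and the 6 cerebellum libraries from 28365687 to 30856484. Levels are given as CPM, read counts scaled to the library total in the usual CPM unit, with mean ± SD. Wiz itself was at 95.4 ± 0.062 CPM in WT and 67.3 ± 0.613 CPM in Het cerebellum (n = 3 each), and its genotypes did not overlap in any of the 3 sets of samples. The tissue labels were met by markers: the Purkinje cell gene Pcp2 was between 159 and 178 CPM in the cerebellums and at most 0.295 CPM in the brains, and summed Hox genes of the brainstem were at most 0.946 CPM in cerebellum against at least 156 CPM in the embryonic brains. In these bulk samples, fewer cells of a type and less RNA per cell cannot be told apart. No batch is labelled, and p-values measure the spread between these samples.

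In GRCm38 (GENCODE M21), Olig1 is a protein-coding gene at chr16:91269772-91271933 (plus strand), and Sox10 one at chr15:79154908-79165240 (minus strand). Of the myelin proteins, Mobp lies at chr9:120149707-120181484 and Cnp at chr11:100574904-100591729, both on the plus strand. Mag spans chr7:30899176-30914873 and Mog chr17:37010743-37023398, both on the minus strand. Mbp lies at chr18:82475146-82585637 (plus strand), Cldn11 at chr3:31149920-31164324 (plus strand) and Mal at chr2:127633226-127656695 (minus strand). Counts are over all exons of each gene. Exonic bases of 3 members are shared with other genes: Olig1 with the opposite-strand lincRNA Gm15966, Cnp with the opposite-strand gene Dnajc7, and Mobp with Gm38642 on the same strand. The strand setting of the counting is not given in the sources used here, so reads from these shared bases cannot be told apart.

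Mbp was the member with the highest level in WT cerebellum. Per kb of exon, it stood at 288 ± 15.9 CPM per kb (n = 3), followed by Cnp at 97.9 ± 3.54 and Mobp at 88.1 ± 3.03 CPM per kb. Cldn11 (58.1 ± 3.41) and Mal (57.0 ± 1.04 CPM per kb) overlapped in range, as did Mag (41.3 ± 2.84) and Mog (37.3 ± 1.99 CPM per kb). The regulators were lowest, with Olig1 at 20.4 ± 0.894 and Sox10 at 7.97 ± 0.658 CPM per kb. In WT male E13.5 brain the order was another: Cldn11 led with 10.04 ± 0.902 CPM per kb, then came Cnp (5.17 ± 0.458), Olig1 (3.96 ± 0.513), Mbp (3.83 ± 0.0954), Mog (3.26 ± 0.398) and Sox10 (2.50 ± 0.835 CPM per kb). The ranges of Olig1 and Mbp overlapped, as did those of Mog and Sox10. Mal (0.900 ± 0.134), Mag (0.309 ± 0.00771) and Mobp (0.0288 ± 0.0217 CPM per kb) were at the bottom. With the longest transcript as the length, Mbp stood at 508 and Mobp at 184 CPM per kb in cerebellum, the latter above Cnp (122.7 CPM per kb), and Mag, at 69.0 CPM per kb, above Cldn11.

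The first comparison set adult cerebellum against E13.5 brain in WT males, where tissue and age differ together and cannot be told apart. All 9 members were higher in cerebellum, each with an adjusted p of at most 7.36e-09 (edgeR quasi-likelihood test) and a fold over 1.3. Of all 16840 genes tested, 69.3% passed in either direction and 36.4% were higher, and the median log2 fold change of all genes was -0.02. The members' log2 fold changes ran from 1.79 to 12.07 with a median of 4.43. The myelin proteins rose more than the regulators: their median was 6.13, and the smallest of them, Cldn11 at 2.74, was above both Olig1 (2.56) and Sox10 (1.79). The difference between these fold changes is a description and was not tested.

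Olig1 had 9.63, 8.67 and 7.42 CPM in WT male brains 1 to 3 and 46.3, 42.6 and 43.7 CPM in WT cerebellums 1 to 3, a log2 fold change of 2.56 (SE 0.08). Sox10 had 8.80, 4.70 and 9.37 CPM in the brains and 23.6, 22.8 and 26.6 CPM in the cerebellums, 1.79 (SE 0.14) on the log2 scale. Both regulators were thus present in the embryonic brain and several times higher in the adult tissue, with no overlap.

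Mobp was close to absent in the embryonic brain. The WT male brains held 7, 6 and 3 Mobp reads, that is 0.139, 0.366 and 0.0873 CPM, and the WT cerebellums 618, 579 and 612 CPM. From the pooled counts, 16 reads against 54815, cerebellum was 3817 times higher, with a 95% exact counting interval from 2350 to 6678. Mag had 1.27, 1.28 and 1.22 CPM in the brains against 174, 155 and 175 CPM (log2 fold change 7.27, SE 0.08). These are the members with the largest changes, and in both the brain level was below 2 CPM.

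Mbp was already measured in every brain, at 33.3, 32.3 and 31.7 CPM, and reached 2516, 2282 and 2514 CPM in the cerebellums (6.44, SE 0.06). The gene has 16 annotated transcripts, and a count over all exons cannot tell which of them gave these reads. Mal had 2.77, 2.07 and 2.65 CPM against 159, 155 and 160 CPM (6.13, SE 0.07). Cnp had 20.2, 16.97 and 19.2 CPM against 362, 342 and 365 CPM (4.43, SE 0.06). Smaller differences were seen in the remaining members. Mog had 6.34, 5.19 and 5.15 CPM in the brains and 64.8, 59.8 and 66.3 CPM in the cerebellums (3.69, SE 0.08). Cldn11, also a gene of the meninges and choroid plexus, had 17.9, 17.7 and 20.7 CPM against 112, 101 and 113 CPM (2.74, SE 0.06). The embryonic brains carried meningeal markers: the sum of 8 fibroblast genes was between 360 and 408 CPM in WT male brains and between 103 and 119 CPM in WT cerebellum, and their part in the Cldn11 level was not tested.

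**Figure D1:**
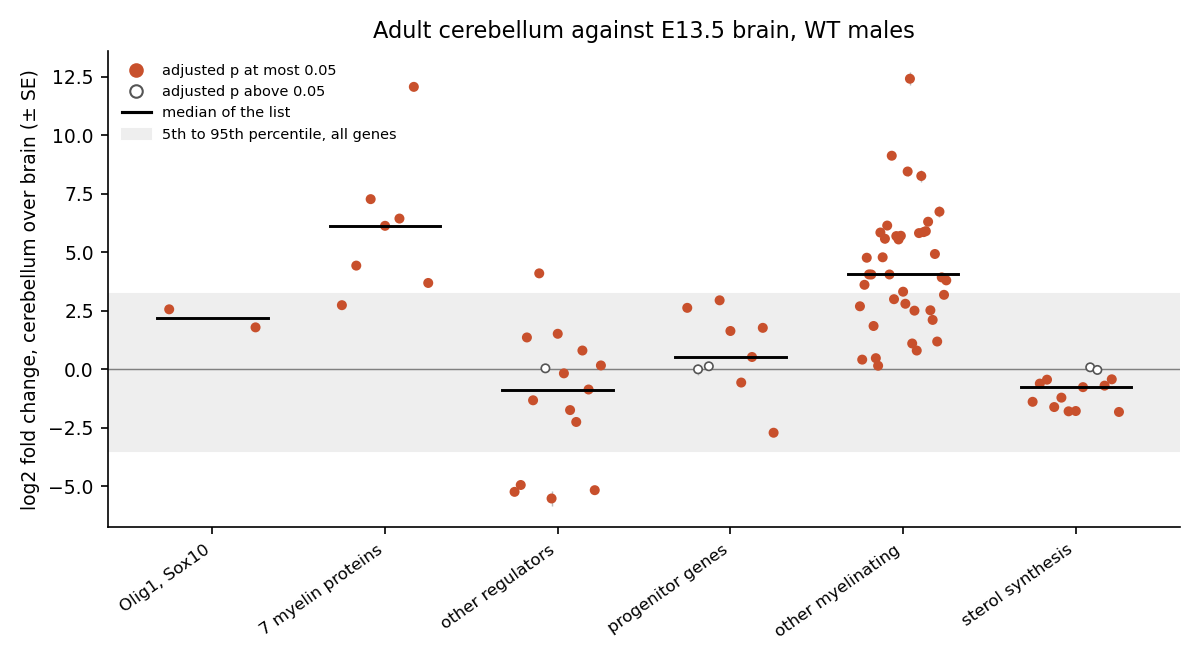
log2 fold change of adult cerebellum over E13.5 brain in WT males (y axis) for the members and the other listed genes of the lineage (x axis), 3 libraries per tissue. Points are genes with SE bars, filled where the adjusted p was at most 0.05, bars are list medians and the grey band spans the 5th to 95th percentile of all genes tested. The 7 myelin proteins sit between 2.74 and 12.07, and the other regulators lie on both sides of 0.

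The same was seen across a wider list of the lineage. The median log2 fold change of the 39 other genes of myelinating oligodendrocytes was 4.05. Of the 39, 38 were past the threshold and higher in cerebellum, where 36.4% of all genes were. The other was Cntn2, whose fitted value of 0.15 (SE 0.04) turned on the TMM scaling: in CPM it was lower in every WT cerebellum (460 to 475) than in every WT male brain (477 to 502). Klk6, a secreted serine protease of mature oligodendrocytes, had no read in any WT male brain and 1790 pooled reads in WT cerebellum, at least 665-fold higher against a floor of 3 counts over the 3 brains. Fa2h, which hydroxylates the fatty acids of myelin lipids, had 10 pooled reads in the brains and 4518 in the cerebellums, a ratio of 503 (95% exact counting interval 273 to 1050). Hapln2, a link protein of the node of Ranvier, had a ratio of 317 (167 to 694), and Tmem125, a membrane protein, of 97.7 (47.1 to 244). Opalin, a myelin glycoprotein, rested on 2 reads in the brains, with a ratio of 321 (88.4 to 2656).

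The other 15 regulators did not follow the 2 members. Among them 4 were past the threshold and higher, and 8 past it and lower, with a median log2 fold change of -0.87. Over all genes tested, 69.3% were past it in either direction and 36.4% were higher. Myrf, which drives myelin genes once oligodendrocytes differentiate, rose by 4.10 (SE 0.07), from 4.02 ± 0.266 to 59.0 ± 2.16 CPM. The lower ones included the patterning factor Nkx6-1 (-5.52), the Wnt effector Tcf7l2 (-5.17) and the Notch target Hes5 (-4.95), genes that embryonic neural progenitors and neurons also use. Olig2, the close relative of Olig1 and named after its values were seen, had 15.4, 16.8 and 16.2 CPM in the brains and 12.7, 11.7 and 12.3 CPM in the cerebellums. Its log2 fold change was -0.18 (SE 0.07, adjusted p = 0.0253), lower where Olig1 was higher, though not past the fold limit. Leaving out 1 library gave Olig2 an edgeR adjusted p from 0.0232 to 0.124, so this call turned on single libraries.

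Of 9 progenitor genes tested, 5 were past the threshold and higher and 2 lower. Beside these counts, 69.3% of all genes tested were past it in either direction and 36.4% were higher. Gpr17, a receptor of committed precursors, rose by 2.95 (SE 0.09), and the matrix genes Bcan (2.62), Tnr (1.77) and Matn4 (1.64) rose with it. Vcan, another matrix proteoglycan, fell by 2.71 on the log2 scale. The sum of 8 astrocyte markers was also higher in WT cerebellum (3698 ± 37.4 CPM) than in WT male brain (565 ± 12.4 CPM). The part of astrocytes and other cells in the levels of these genes was not tested. Sterol synthesis, on which myelin membrane depends in development, went the other way: 9 of 13 enzymes were past the threshold and lower in adult cerebellum, with Sqle (-1.82), Hmgcs1 (-1.78), Fdft1 (-1.61) and Cyp51 (-1.39) among the lowest.

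Upstream windows are shown for 4 myelin proteins to set those with the largest (Mobp) and the smallest (Cldn11) difference between the tissues among the 7 myelin proteins beside Mag and Cnp, which carry an adjusted p of at most 0.05 in the comparison of genotypes. The RefSeq promoter table (GRCm38.p6) held 6 of the 9 members. Each window was the 250 bases before the most upstream start, shortened to 215 for Mobp and Cnp, whose GENCODE start lies further upstream. Capitals mark ACAAAG, a core letter string bound by SOX factors, on either strand (CTTTGT when reversed).
Mobp (chr9:120149492-120149706, plus): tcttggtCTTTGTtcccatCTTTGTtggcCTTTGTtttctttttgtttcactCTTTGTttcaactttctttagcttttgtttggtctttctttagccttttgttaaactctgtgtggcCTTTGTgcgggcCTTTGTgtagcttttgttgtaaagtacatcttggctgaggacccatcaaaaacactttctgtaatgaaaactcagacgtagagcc
Mag (chr7:30914923-30915172, minus): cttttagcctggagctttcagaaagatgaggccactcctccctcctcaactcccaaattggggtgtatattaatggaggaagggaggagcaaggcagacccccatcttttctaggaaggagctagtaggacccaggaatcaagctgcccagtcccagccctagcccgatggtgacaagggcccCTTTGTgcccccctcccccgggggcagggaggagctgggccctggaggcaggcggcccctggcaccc
Cnp (chr11:100574689-100574903, plus): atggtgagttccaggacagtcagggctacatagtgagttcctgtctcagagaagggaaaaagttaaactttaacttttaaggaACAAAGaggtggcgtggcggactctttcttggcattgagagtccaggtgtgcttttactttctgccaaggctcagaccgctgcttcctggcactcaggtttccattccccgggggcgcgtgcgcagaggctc
Cldn11 (chr3:31149670-31149919, plus): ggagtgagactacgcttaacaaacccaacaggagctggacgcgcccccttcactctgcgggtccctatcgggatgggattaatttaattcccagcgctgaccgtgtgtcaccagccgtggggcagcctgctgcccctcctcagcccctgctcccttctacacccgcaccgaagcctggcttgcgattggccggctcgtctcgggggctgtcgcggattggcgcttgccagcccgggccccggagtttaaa
The Mobp window held ACAAAG 6 times, and Mag and Cnp once each. The window of Mobp was 39.1% GC, against a median of 52.0% over all promoters. Among 27025 genes with a promoter in the table, members included, 16.5% held ACAAAG at least once in 250 bases. The share was 14.5% in the upstream 215 bases, and 1 gene held it 6 times or more. None of the windows of Cldn11, Mog and Mal held it. The strings ACAATG (SOX), CAGCTG and CATATG (E-boxes, bound by helix-loop-helix factors) were in none of the 6 windows, against 9.95%, 10.9% and 3.16% of all promoters in 215 bases. A match of letters is a description and not a binding site.

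The second comparison set Het against WT cerebellum. The limits were those of the study, an adjusted p of at most 0.05 with a fold under 0.7 or over 1.3. The study applied them to DESeq and here they are applied to edgeR, so its calls can differ from these. None of the 9 members passed, and 0.832% of all 15979 genes tested did. Wiz itself, at a fold of 0.706 (edgeR quasi-likelihood adjusted p = 9.90e-08), also missed the fold limit. All 9 log2 fold changes were below 0, between -0.27 and -0.05 with a median of -0.11, against a median of 0.00 over all genes, of which 48.7% were higher. By the adjusted p alone, 4 of the 9 were lower in Het (Sox10, Mag, Mbp and Cnp), where 5.25% of all genes passed and 2.56% were lower. At an unadjusted p under 0.05 the count was 7 (all lower), against 19.9% of all genes and 10.3% lower. These 9 genes share a cell type and libraries, so their common direction is not 9 separate observations.

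Sox10 had 23.6, 22.8 and 26.6 CPM in WT cerebellums 1 to 3 and 19.6, 21.4 and 19.5 CPM in Het cerebellums 1 to 3. Each Het library was below each WT library, and the log2 fold change was -0.27 (SE 0.06, edgeR quasi-likelihood adjusted p = 0.0174). Olig1 had 46.3, 42.6 and 43.7 CPM in WT and 42.7, 39.6 and 40.8 CPM in Het. Its genotypes overlapped by Het 1 alone, and its log2 fold change of -0.11 (SE 0.04, adjusted p = 0.183) did not pass.

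Mag, with 174, 155 and 175 CPM in WT and 147, 149 and 146 CPM in Het, had a log2 fold change of -0.19 (SE 0.04, adjusted p = 0.0101). The 3 Het libraries lay close together, and WT 2 was the WT library nearest to them. Mbp had 2516, 2282 and 2514 CPM in WT and 2099, 2254 and 2147 CPM in Het, and its log2 fold change was -0.17 (SE 0.04, adjusted p = 0.0130). The genotypes did not overlap, with Het 2 just under WT 2. Cnp, with 362, 342 and 365 CPM in WT and 324, 340 and 324 CPM in Het, differed by -0.11 (SE 0.03, adjusted p = 0.0401), again with only a narrow gap between WT 2 and Het 2.

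The other 4 myelin proteins did not pass. Mobp had 618, 579 and 612 CPM in WT and 573, 577 and 550 CPM in Het, which did not overlap (-0.09, SE 0.03, adjusted p = 0.0962). Cldn11 had 112, 101 and 113 CPM in WT against 104, 103 and 98.2 CPM in Het (-0.10, SE 0.04, adjusted p = 0.172). In Mog, the values were 64.8, 59.8 and 66.3 CPM in WT and 62.1, 63.2 and 56.6 CPM in Het (-0.07, SE 0.05, adjusted p = 0.433). Those of Mal were 159, 155 and 160 CPM in WT and 157, 156 and 144 CPM in Het (-0.05, SE 0.03, adjusted p = 0.402). In the last 3 genes WT 2 lay at or below the upper Het libraries. In all, 5 of the 9 members did not overlap between genotypes, all of them lower in Het, where 24.3% of all genes did not overlap and 12.6% were lower.

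**Figure D2:**
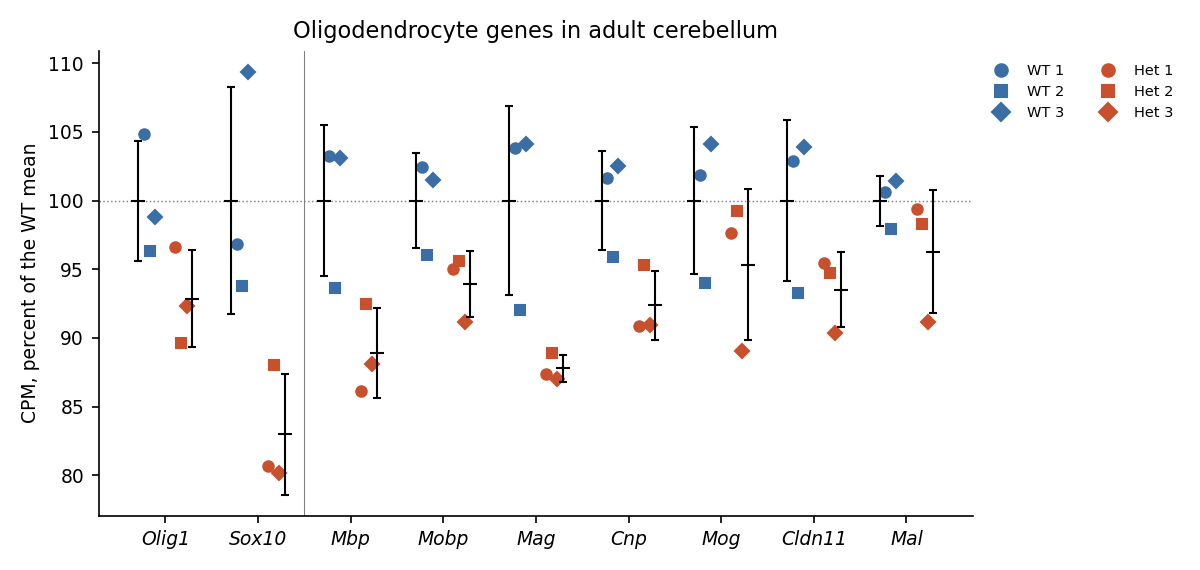
CPM of each member in the 6 cerebellum libraries as percent of that gene's WT mean (y axis, not starting at 0), by gene (x axis). Symbols mark the 3 WT and 3 Het animals, horizontal ticks with bars the mean ± SD, and the line at 100 the WT mean. WT 2 is the lowest WT library in all 9 genes, with a median of 94.0 percent.

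The WT libraries were not alike. WT 2 was the lowest of the 3 in all 9 members, with a median of 94.0% of the WT mean, while Het 1 and Het 2 had medians of 95.03% and 94.7% and Het 3 of 90.4%. The member count thus turned on single libraries: it was 1 of 9 without WT 1, 6 without WT 2, 0 without WT 3, 0 without Het 1, 4 without Het 2 and 2 without Het 3, while all 9 log2 fold changes stayed below 0 in each of these fits. The coefficient of variation between replicates had a median over the members of 5.34% in WT and 3.66% in Het cerebellum, against 4.39% and 4.52% over all genes tested.

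Of 62 other genes of the lineage tested, 47 had a log2 fold change below 0, where 48.7% of all genes were higher. By the adjusted p alone 12 were lower and 1 was higher, and none was past the fold limit. Of all genes tested, 5.25% passed the adjusted p and 2.56% were lower. Like the members, these genes share a lineage and libraries, so their direction is not 62 separate observations. The median over the 62 was -0.10. Within it, the 39 other genes of myelinating cells had 30 below 0, 11 of them by the adjusted p, and a median of -0.12. Among the 14 other regulators tested 1 was called, and among the 9 progenitor genes 0. The count of 12 was 8 without WT 1, 17 without WT 2, 3 without WT 3, 4 without Het 1, 11 without Het 2 and 4 without Het 3.

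The called genes were named after their values were seen. Trf, the iron carrier transferrin that oligodendrocytes make, had 34.5, 33.2 and 33.8 CPM in WT and 27.6, 28.2 and 28.4 CPM in Het (-0.27, SE 0.04, adjusted p = 0.00204). Cryab, a small heat shock protein, had 66.5, 68.3 and 68.5 CPM in WT and 56.7, 59.8 and 58.3 CPM in Het (-0.22, SE 0.04, adjusted p = 0.00259). Fa2h had 50.1, 49.1 and 49.99 CPM against 43.5, 43.9 and 42.7 CPM (-0.20, SE 0.04, adjusted p = 0.00686). In these 3 genes the genotypes were apart with a gap wider than the spread within either, and an adjusted p of at most 0.05 was kept in all 12 alternative fits.

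Gjb1, which encodes the gap junction protein connexin 32, was among those lower, by -0.26 (SE 0.07, adjusted p = 0.0446). Ugt8a, the enzyme that makes galactosylceramide, was lower by -0.19 (SE 0.04, adjusted p = 0.0166) and Klk6 by -0.29 (SE 0.06, adjusted p = 0.0141). Bcas1, Adamts4, Omg and Gsn were lower by -0.15, -0.17, -0.14 and -0.19. These calls were less stable: of the 12 alternative fits, an adjusted p of at most 0.05 was kept in 5 for Omg, 6 for Gjb1, 7 for Adamts4, 8 for Bcas1 and Gsn, 9 for Ugt8a and 10 for Klk6. The regulator called was Nkx2-2, a homeodomain factor of the lineage, with 4.81, 4.56 and 4.89 CPM in WT and 3.45, 3.50 and 3.24 CPM in Het (-0.48, SE 0.11, adjusted p = 0.0156), kept in 8 of the 12.

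Not every myelin gene was lower. Cntn2, a contactin of the juxtaparanode that neurons also express, was the 1 gene higher, at 473, 475 and 460 CPM in WT and 520, 501 and 497 CPM in Het (0.11, SE 0.03, adjusted p = 0.0315). Myrf, with 61.0, 56.7 and 59.3 CPM in WT and 55.9, 56.5 and 53.6 CPM in Het, had its genotypes apart by a narrow gap. Of the 13 sterol enzymes, Fdps alone was called, lower by -0.21 (SE 0.04, adjusted p = 0.0102), and the median of the 13 was -0.01.

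**Figure D3:**
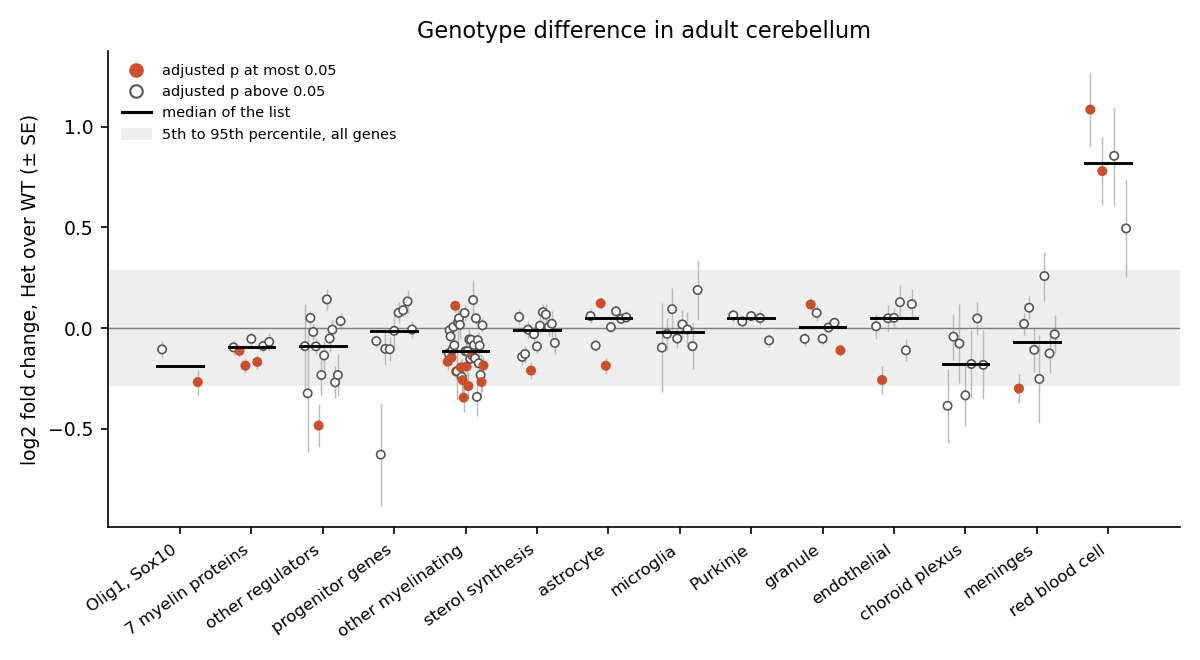
log2 fold change of Het over WT cerebellum (y axis) for the members, the other lineage lists and marker lists of other cell types (x axis), 3 libraries per genotype. Points are genes with SE bars, filled where the adjusted p was at most 0.05, black bars are list medians and the grey band holds the 5th to 95th percentile of all genes. The members sit between -0.27 and -0.05, inside the band from -0.28 to 0.28, and red blood cell markers lie above it.

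Markers of other cerebellar cells were set beside these values. The median log2 fold change was 0.05 over 8 astrocyte, -0.02 over 8 microglial, 0.05 over 5 Purkinje, 0.00 over 7 granule cell, 0.05 over 7 endothelial and -0.07 over 8 meningeal markers. Over 7 choroid plexus markers it was -0.18, with 6 of them lower and none called, a larger value than the members' -0.11. Over 6 tested Schwann cell and crest markers it was 0.07. Single genes of these lists passed the adjusted p: Gfap (-0.19), Zic1 (-0.11), Cldn5 (-0.26) and Col1a1 (-0.30) were lower, and Gdf10 (0.12), Cbln3 (0.12) and Ngfr (0.31) higher. Red blood cell markers moved with genotype: all 4 tested were higher in Het, 2 of them past both limits (Alas2 at 1.08 and Hba-a1 at 0.78), and the sum of the list was between 78.8 and 124 CPM in WT and between 140 and 258 CPM in Het. The choroid plexus sum was 974 CPM in Het 2 and between 1770 and 2077 CPM in the other 5 cerebellums. The part of these cells in the members' values was not tested.

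By root-mean-square difference on log2 CPM centred per gene over the 6 cerebellums, the genes most like the mean of the 7 myelin proteins were Usmg5 (0.00496), Marcksl1 (0.0158), Mrpl38 (0.0182), Rnd2 (0.0191) and Srgn (0.0200). They were taken from 6516 genes with a mean of at least 1 CPM and a range at least that of the mean profile (0.20 on the log2 scale). The median difference over these genes was 0.132. With 6 libraries such a likeness is a description only.

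The third comparison set Het against WT E13.5 brain. No member passed in male brain, where 0.184% of all genes were past both limits and 0.196% had an adjusted p of at most 0.05. The 2 WT and 2 Het female libraries gave none either by edgeR (0.111% of all genes by either rule). Nor did the fit of both sexes with sex as a covariate (0.346% and 0.477%). The DESeq test of the study was not run here. At an unadjusted p under 0.05 there were 3 members in males, 3 in females and 5 in the joint fit, against 8.45%, 6.4% and 11.8% of all genes.

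Olig1 had the smallest p of the members in the joint fit. It had 9.63, 8.67 and 7.42 CPM in male WT and 6.72, 7.42 and 7.93 CPM in male Het brains, and 11.3 and 11.7 CPM in female WT against 6.71 and 8.54 CPM in female Het brains. The female genotypes were apart and the male ones overlapped. The log2 fold change was -0.24 (SE 0.11, adjusted p = 0.584) in males, -0.60 (SE 0.14, adjusted p = 0.70) in females and -0.39 (SE 0.10, adjusted p = 0.145) over both sexes. The joint result turned on the method: its adjusted p was 0.0381 by DESeq2, 0.0298 with no filter on low counts and 0.0475 without male WT 3.

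Sox10 varied widely between brains of the same group. It had 8.80, 4.70 and 9.37 CPM in male WT, 8.81, 7.01 and 9.86 CPM in male Het, 11.3 and 16.3 CPM in female WT and 13.4 and 4.88 CPM in female Het brains, and the genotypes overlapped in both sexes. The joint log2 fold change was -0.21 (SE 0.25, adjusted p = 0.782). Markers of neural crest and Schwann cells moved with it: in the 2 lowest brains, male WT 2 and female Het 2, the neuregulin receptor gene Erbb3 was at 4.58 and 4.63 CPM and the cadherin gene Cdh19 at 0.854 and 1.16 CPM, while in the highest, female WT 2, they stood at 17.1 and 3.11 CPM. The sum of the 9 markers was 77.4, 84.5 and 134 CPM in these 3 brains, and between 81.4 and 116 CPM in the other 7. Olig1 was at 8.67, 8.54 and 11.7 CPM in them, the last its highest value as well, while its lowest brains were others (female Het 1 at 6.71 and male Het 1 at 6.72 CPM). The part of crest cells in the Sox10 level was not tested.

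**Figure D4:**
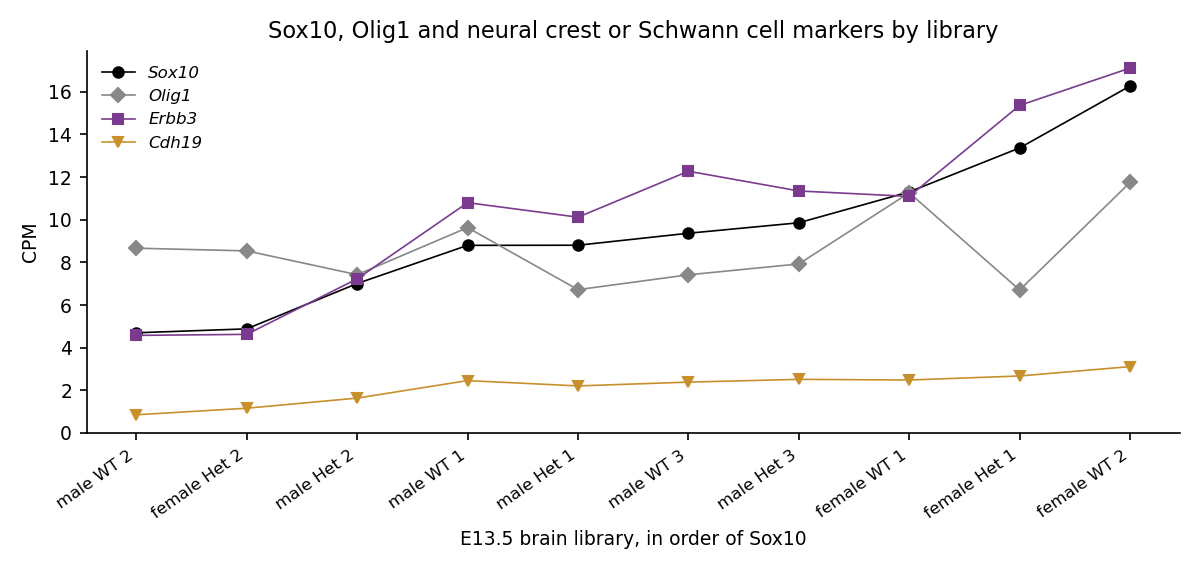
CPM (y axis) of Sox10, Olig1 and the crest or Schwann cell markers Erbb3 and Cdh19 in each of the 10 E13.5 brain libraries, ordered by Sox10 (x axis). Lines join the values of a gene. Sox10 runs from 4.70 to 16.3 CPM, and Erbb3 and Cdh19 have their 3 lowest values in the same 3 libraries as Sox10, while Olig1 does not.

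The myelin proteins were low at this age, and none passed the adjusted p in the joint fit. Mbp had 33.3, 32.3 and 31.7 CPM in male WT, 33.5, 32.5 and 32.9 CPM in male Het, 30.9 and 37.5 CPM in female WT and 32.2 and 31.4 CPM in female Het brains, with a joint log2 fold change of -0.04 (SE 0.05, adjusted p = 0.825). Mog lay between 5.01 and 6.34 CPM in all 10 brains (0.03, SE 0.08, adjusted p = 0.926). Mag lay between 1.22 and 1.95 CPM (-0.11, SE 0.14, adjusted p = 0.799). For neither did the joint p fall under 0.05 before adjustment.

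Cnp, between 16.7 and 22.3 CPM, had a joint log2 fold change of -0.14 (SE 0.06, adjusted p = 0.372). Cldn11, between 16.2 and 23.9 CPM, differed by -0.18 (SE 0.08, adjusted p = 0.419) and was the 1 member whose genotypes were apart in males, where 12.3% of all genes were and 5.4% were lower. Mal had 2.77, 2.07 and 2.65 CPM in male WT, 2.06, 2.39 and 1.84 CPM in male Het, 2.80 and 3.43 CPM in female WT and 2.48 and 1.94 CPM in female Het brains (-0.39, SE 0.12, adjusted p = 0.222). In females 5 members were apart (Olig1, Mag, Cnp and Mal lower in Het, Mobp higher), but with 2 against 2 libraries 36.5% of all genes were, 17.3% lower and 19.2% higher. Some lists of other cells were lower in the female Het brains too, with no gene at an adjusted p of at most 0.05. Below 0 were 8 of 8 microglial (median log2 fold change -0.10), 7 of 7 endothelial (-0.07), 7 of 7 brainstem Hox (-0.15) and 8 of 9 Schwann cell and crest genes (-0.38). The median over the members was -0.22. In males the medians of these 4 lists were between -0.02 and 0.01. The sums overlapped between the female genotypes for the Hox (177 and 230 CPM in WT, 192 and 174 CPM in Het) and the crest genes (106 and 134 CPM, 116 and 84.5 CPM). Mean sums were higher in female Het than WT for Purkinje (65.9 against 62.7 CPM) and granule cell markers (426 against 425 CPM). They were also higher for progenitor genes (903 against 856 CPM) and other regulators (955 against 883 CPM). The part of other cells in the members' values was not tested.

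Mobp went the other way on few reads. It had 7, 6 and 3 reads in male WT and 19, 11 and 10 in male Het, 15 and 10 in female WT and 23 and 19 in female Het brains, that is 0.0873 to 0.366 CPM in WT and 0.269 to 0.504 CPM in Het. The joint log2 fold change was 0.90 (SE 0.30, adjusted p = 0.263). The shallowest library, male WT 2, held the highest WT value.

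**Figure D5:**
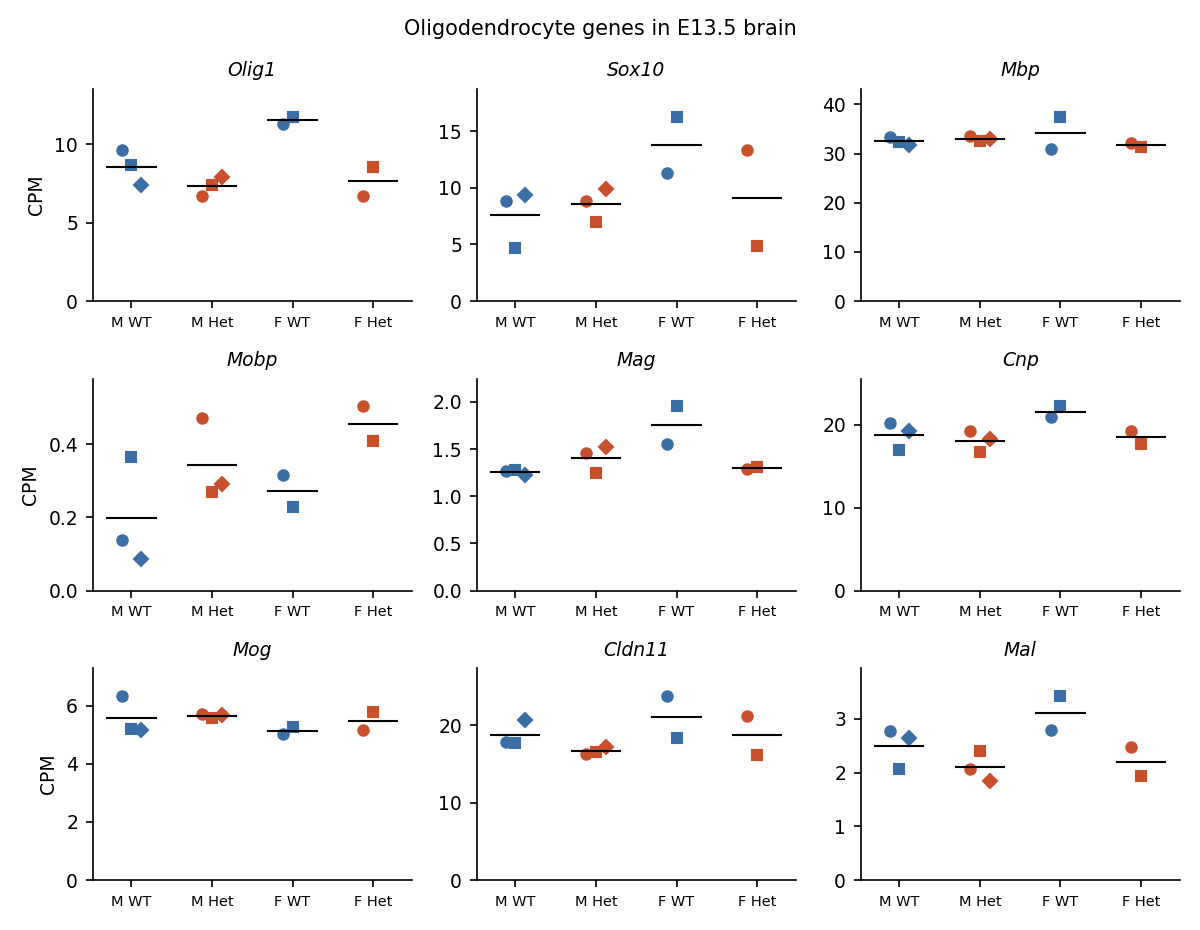
CPM (y axis, from 0) of each member in the 10 E13.5 brain libraries by sex and genotype (x axis, M male, F female). Points are single embryos, marked by replicate number and coloured by genotype, and lines are group means. WT is blue and Het orange. The male genotypes overlap in all genes but Cldn11, and Olig1 in females is apart, at 11.3 and 11.7 CPM in WT against 6.71 and 8.54 CPM in Het.

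Of the other lineage genes, Bcan alone was past both limits in the joint fit of E13.5 brain. It had 35.9, 28.4 and 28.7 CPM in male WT, 18.2, 22.9 and 23.9 CPM in male Het, 26.4 and 36.7 CPM in female WT and 19.8 and 21.5 CPM in female Het brains, so every Het brain was below every WT brain. The log2 fold change was -0.57 (SE 0.10, adjusted p = 0.0196). The call was lost without male WT 1 (adjusted p = 0.0918), male Het 1 (0.0507), female Het 1 (0.0648) or female Het 2 (0.0564). In cerebellum Bcan differed by -0.06 (SE 0.03, adjusted p = 0.266). The part of cells outside the lineage in the Bcan level was not tested.

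The difference between the genotype effects in the 2 tissues was tested in males with an interaction term, cerebellum minus brain. No member passed (0.26% of all 17337 genes did), and 2 had an unadjusted p under 0.05, against 9.72% of all genes. These were Mbp at -0.19 (SE 0.06, adjusted p = 0.302) and Mobp at -1.20 (SE 0.39, adjusted p = 0.292), the latter on the few reads of the embryo. Sox10, at -0.33 (SE 0.20, adjusted p = 0.628), Mag, at -0.34 (SE 0.17, adjusted p = 0.520), and Mal, at 0.26 (SE 0.13, adjusted p = 0.564), had wide errors. That the adult effect differed from the embryonic one was thus not shown for any member. No difference of the genotype effect between the sexes was detected in the embryo: 0 of 9 members and 0% of 17620 genes passed the sex term by edgeR, with 1 member (Mag, -0.59, SE 0.23) and 3.98% of all genes at an unadjusted p under 0.05.

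The balance between the 2 classes of members was read as mean log2 CPM of the 7 myelin proteins minus that of the 2 regulators, with 0.5 CPM added. It was 3.01 ± 0.0190 in WT and 3.08 ± 0.0185 in Het cerebellum (n = 3 each), and -0.50 ± 0.227 in WT and -0.49 ± 0.143 in Het male brain. In female brain it was -0.97 in WT and -0.45 in Het (n = 2 each), with single values from -1.08 to -0.25. The 3 Het cerebellums, from 3.06 to 3.10, were above the 3 WT cerebellums, from 2.99 to 3.03, a description with no test. In the embryo the genotypes overlapped in males and not in females.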

How the data were processed

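RNA-seq counts of 16 samples were used. Per the methods and labels, the authors mapped single-end reads to mm10 with TopHat2 2.0.11 and deposited raw read counts per Ensembl gene from HTSeq 0.6.1. The counting mode, strand setting and annotation release are not given in the sources used here, which could affect genes with shared exons. Of 41388 identifiers, 40340 were found in GENCODE M21. Total counts ran from 16386029 to 50459755. Intervals on pooled counts cover counting error only.

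Groups came from the sample labels. edgeR 4.0.16 (R 4.3.3) was run for every comparison separately, using TMM factors, filterByExpr at a minimum count of 10, the quasi-likelihood test and Benjamini-Hochberg adjustment over all genes. SE is the log2 fold change over the root of F. CPM was scaled by total counts. All 9 members passed the filter in every fit. The fits were tested on simulated data. Alternatives were DESeq2 1.42.0, other size factors, other filters, single libraries left out and a replicate block (number within sex or tissue). Motif counts and figures used Python 3.11.15.

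The genes named were all members and, in each other lineage list, up to 5 past the threshold with the smallest p (genotype) or largest fold (tissue). Others are said to be named after their values were seen. The members and lists were chosen with earlier results of these data known. No sequence of Mbp, Olig1 or Sox10 is shown. Some listed genes that the rule names are not reported here.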

Additional observations from a re-analysis of the deposited data

How the results depend on the processing

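In all alternatives run, the 9 members stayed higher in adult cerebellum than in E13.5 brain past both limits, also in Het animals, and all 9 stayed lower in Het cerebellum with none past both limits. Scaling by total counts alone lowered the tissue difference, to 1.58 for Sox10. Dropping the fold limits gave 4 members and 839 genes in place of 133 in cerebellum. Over all genes DESeq2 gave 75 past both limits, and no filter on low counts gave 211 past both limits and 1268 by the adjusted p alone, where Mobp also passed (adjusted p = 0.0375). Leaving out 1 cerebellum library gave 0 to 6 members, 3 to 17 other lineage genes, 187 to 891 genes by the adjusted p and 70 to 153 past both limits. WT 3 and Het 1 were the libraries whose loss left no member. In the joint fit of E13.5 brain, DESeq2 and no filter each gave 1 member (Olig1), and leaving out 1 library gave 0 to 1.

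The labels do not say whether the replicate numbers pair the samples. Same-numbered WT and Het samples of a tissue and sex had residual correlations from -0.16 to -0.02. Those with other numbers ran from -0.075 to 0.10. Each small group was centred on its own mean, which ties these values together, so they cannot show whether the numbers mark pairs. With a replicate block, 3 members were lower in Het cerebellum by the adjusted p, with Cnp at an adjusted p of 0.0740, and the Bcan call in E13.5 brain went to an adjusted p of 0.0515. Small E13.5 differences changed sign. Male Mog was 0.00072 by DESeq2 and 0.011 with the block. Leaving out 1 library gave in males -0.079 to 0.13 for Mog, -0.092 to 0.21 for Sox10 and -0.0053 to 0.041 for Mbp. In females it gave -0.39 to 0.017 for Cldn11, -0.24 to 0.040 for Mbp and -0.0014 to 0.17 for Mog. In the joint fit it gave -0.066 to 0.024 for Mbp, -0.17 to 0.0080 for Mag, -0.39 to 0.041 for Sox10 and -0.0013 to 0.11 for Mog. The cause was not tested. Mobp in the embryo, at 3 to 23 reads, is limited by depth.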
